A study of Mus musculus with 26 samples.

Results

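Oxidative phosphorylation is carried out by large protein complexes of the inner mitochondrial membrane, and most of their subunits are encoded in the nucleus. The genes described here are those nuclear subunits, chosen by name alone: mouse symbols that begin with Ndufa, Ndufb, Ndufc, Ndufs or Ndufv and a digit, Ndufab1, and those that begin with Uqcr, Cox4i, Cox5, Cox6, Cox7, Cox8 or Atp5, with 7 pseudogenes marked -ps left out. The rule found 85 genes among the 39179 in each count table, 41 of complex I, 8 of complex III, 19 of complex IV and 17 of complex V. Of these, 78 passed a filter on low counts and were tested, 38 of complex I, all 8 of complex III, 15 of complex IV and all 17 of complex V. The other 7, Cox8b, Cox8c, Cox7b2, Cox6c2, Ndufa11b, Ndufb4c and Ndufs6b, had between 0 and 89 counts over all 26 libraries together. Of these, Cox6c2, Ndufa11b, Ndufb4c and Ndufs6b are annotated as processed pseudogenes, though their symbols carry no -ps.

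The study asked how diet-induced obesity bears on the outcome of stroke. All mice were C57BL/6J, an inbred strain that gains weight on fat-rich food, and RNA came from cortex holding the core of a focal ischemic stroke with the tissue around it, 3 days after the event, or from sham cortex. Stroke groups were a high-fat diet (HFD, 60% of calories from fat) for 15 weeks with 6 libraries, a control diet (CD, 6% of calories from fat) for 15 weeks with 4, HFD for 6 weeks with 6 and CD for 6 weeks with 4. Sham groups had 3 libraries on HFD and 3 on CD, both for 6 weeks, and no sham group fed for 15 weeks is part of what was analysed. Beyond the strain the labels give no genotype, and they give no age or batch and do not say that each library is a separate animal, so the p-values speak only of the spread among these libraries, which may be technical. Whatever differed between the 15-week and the 6-week arm besides the weeks of feeding, the age of the mice included, cannot be told apart from it.

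Complex I takes electrons from NADH, complex III passes them from ubiquinone to cytochrome c, and complex IV hands them to oxygen. All these complexes pump protons, and complex V, the ATP synthase, uses the proton gradient to make ATP. Neurons rely heavily on this supply, and ischemia cuts off the oxygen it needs. Each of these complexes also holds subunits made from mitochondrial DNA, which is transcribed inside the organelle and not by the nuclear machinery. Several subunits come as pairs of isoforms, one general and one bound to muscle, testis, lung or low oxygen.

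The factors that many of these genes are known to answer to, among them NRF1, the ETS factor GABPA, YY1 and the estrogen-related receptors, bind short sequences near the start site. Promoter windows of 300 bases, 250 before the start and 50 after it, were found for 66 of the 85 genes in RefSeq (GRCm38.p6). The NRF1 core GCATGCGC, searched on both strands as all motifs here, stood in 9 of the 66 (13.6%) and in 3.05% of all 27025 promoters. The YY1 motif AAGATGGC stood in 10 (15.2%) and in 3.19% of all promoters. The ETS motif CCGGAAGT stood in 5 (7.58%) against 4.31%, and the estrogen-related receptor motif TCAAGGTCA in 1 (1.52%) against 0.466%. None of these motifs contains another, and the NRF1 core can overlap itself on the opposite strand. Stretches of 120 bases from the windows of 4 genes are shown, because these genes were lower after 15 weeks on one diet or both and their promoters range from a motif to none. Capitals mark a motif on either strand.
Atp5k, chr5:108434400-108434519, minus strand: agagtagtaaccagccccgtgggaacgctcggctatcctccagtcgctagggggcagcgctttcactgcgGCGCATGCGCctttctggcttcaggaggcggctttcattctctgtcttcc
Ndufa11, chr17:56717642-56717761, plus strand: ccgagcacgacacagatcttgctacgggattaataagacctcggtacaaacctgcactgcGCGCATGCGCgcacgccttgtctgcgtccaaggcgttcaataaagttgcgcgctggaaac
Uqcr11, chr10:80406822-80406941, minus strand: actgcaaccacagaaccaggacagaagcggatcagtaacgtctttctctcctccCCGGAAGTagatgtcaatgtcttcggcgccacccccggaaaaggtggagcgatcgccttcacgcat
Uqcr10, chr11:4704345-4704464, minus strand: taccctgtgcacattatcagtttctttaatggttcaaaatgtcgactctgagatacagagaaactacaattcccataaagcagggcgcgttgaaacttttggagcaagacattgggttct
The capitals in Atp5k and Ndufa11 are the NRF1 core read on both strands, and those in Uqcr11 the ETS motif, whose full window also held an NRF1 core. No motif searched was found in the window of Uqcr10.

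Each library had between 11400882 and 16962682 counts in genes, and levels in CPM (counts scaled to a common library size) below also carry the TMM correction for library composition. Markers of excitatory neurons were present in all libraries, with a summed level between 4153 and 7211 CPM, while testis markers summed to at most 3.61 CPM. The list of 12 microglia and macrophage markers summed to 427 to 2947 CPM in stroke libraries against 294.5 to 340.5 CPM in sham libraries. Choroid plexus genes were high in replicate 6 of the 6-week HFD stroke group, at 1535 CPM in sum, and in replicate 2 of the HFD sham group, at 655 CPM, against 257 to 458 CPM in the other libraries. Replicate 1 of the 15-week HFD stroke group and replicate 3 of the 15-week CD stroke group were low in phagocyte genes for their group, at 427 and 532 CPM.

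Per kilobase of transcript, complex V was led by Atp5b, the catalytic beta subunit, at a mean of 635 CPM per kb over the libraries, and its lowest tested gene was Atp5s, a coupling factor, at 8.06 CPM per kb. Complex IV was led by Cox8a, the general isoform of its smallest subunit, at 527 CPM per kb, and by Cox4i1 at 448 CPM per kb. Complex I was led by Ndufa4 at 281 CPM per kb, a protein that biochemical work now places in complex IV although it is counted by name here. Complex III was led by Uqcrh, the hinge protein, at 270 CPM per kb, and its lowest gene per kb, Uqcrq, still had 51.7 CPM per kb. The length is that of the longest transcript annotated as principal, 1521 bases for Uqcrq against 434 for Uqcr10. These ranks depend on that choice.

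The isoforms bound to other tissues were low. Cox4i2, known from lung and from hypoxia, had 1.34 CPM per kb, against 448 CPM per kb for Cox4i1. Cox6b2, the testis isoform, had 1.39 CPM per kb, and Cox7a1, the heart and muscle isoform, 3.76 CPM per kb. Cox6a2, a muscle isoform that is also known from parvalbumin interneurons of mouse brain, had 6.47 CPM per kb, against 296 CPM per kb for its general partner Cox6a1. Ndufa4l2, a hypoxia-inducible relative of Ndufa4, had 2.01 CPM per kb. Together the 85 genes took 8834 ± 459 CPM in 15-week HFD stroke cortex (SD, n = 6), 8962 ± 255 CPM in 15-week CD stroke cortex (n = 4), 9712 ± 347 CPM in 6-week HFD stroke cortex (n = 6) and 10080 ± 453 CPM in 6-week CD stroke cortex (n = 4). In sham cortex they took 9945 ± 838 CPM on HFD and 10830 ± 275 CPM on CD (n = 3 each).

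Most calls among these genes were between the 15-week and the 6-week stroke groups, and all of them were lower after 15 weeks. On HFD 19 of 78 genes were lower after 15 weeks and 0 higher by edgeR's quasi-likelihood test at an adjusted p of 0.05, where 1.62% of all 16325 genes were called lower and 0.735% higher. On CD 8 of 78 were lower and 0 higher, where 0.325% of all genes were called lower and 0.239% higher. The direction was shared far beyond the genes called: 74 of 78 on HFD and 75 of 78 on CD had a log2 fold change below 0. The median log2 fold change was -0.14 on HFD and -0.19 on CD, against 0.01 and 0.00 over all genes tested. The changes were small, since the 78 genes ranged between -0.42 and 0.17 on HFD and between -0.45 and 0.26 on CD. In bulk tissue fewer cells of a type and less RNA per cell cannot be told apart.

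Mean levels were lower after 15 weeks in all of the complexes. The mean log2 CPM of the complex I genes was 5.82 ± 0.06 after 15 weeks and 5.96 ± 0.04 after 6 weeks on HFD (SD, n = 6 each), and 5.83 ± 0.02 after 15 weeks and 6.01 ± 0.06 after 6 weeks on CD (n = 4 each). For complex III it was 6.68 ± 0.07 after 15 weeks and 6.84 ± 0.06 after 6 weeks on HFD, and 6.69 ± 0.05 after 15 weeks and 6.89 ± 0.06 after 6 weeks on CD. For complex IV it was 5.45 ± 0.05 after 15 weeks and 5.59 ± 0.06 after 6 weeks on HFD, and 5.49 ± 0.06 after 15 weeks and 5.64 ± 0.10 after 6 weeks on CD. For complex V it was 6.71 ± 0.06 after 15 weeks and 6.85 ± 0.06 after 6 weeks on HFD, and 6.71 ± 0.03 after 15 weeks and 6.90 ± 0.06 after 6 weeks on CD. Over the 78 genes the CD groups did not overlap, at 6.00 to 6.07 after 15 weeks against 6.17 to 6.32 after 6 weeks, while the HFD groups overlapped, at 5.95 to 6.12 against 6.09 to 6.22.

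**Figure D1:**
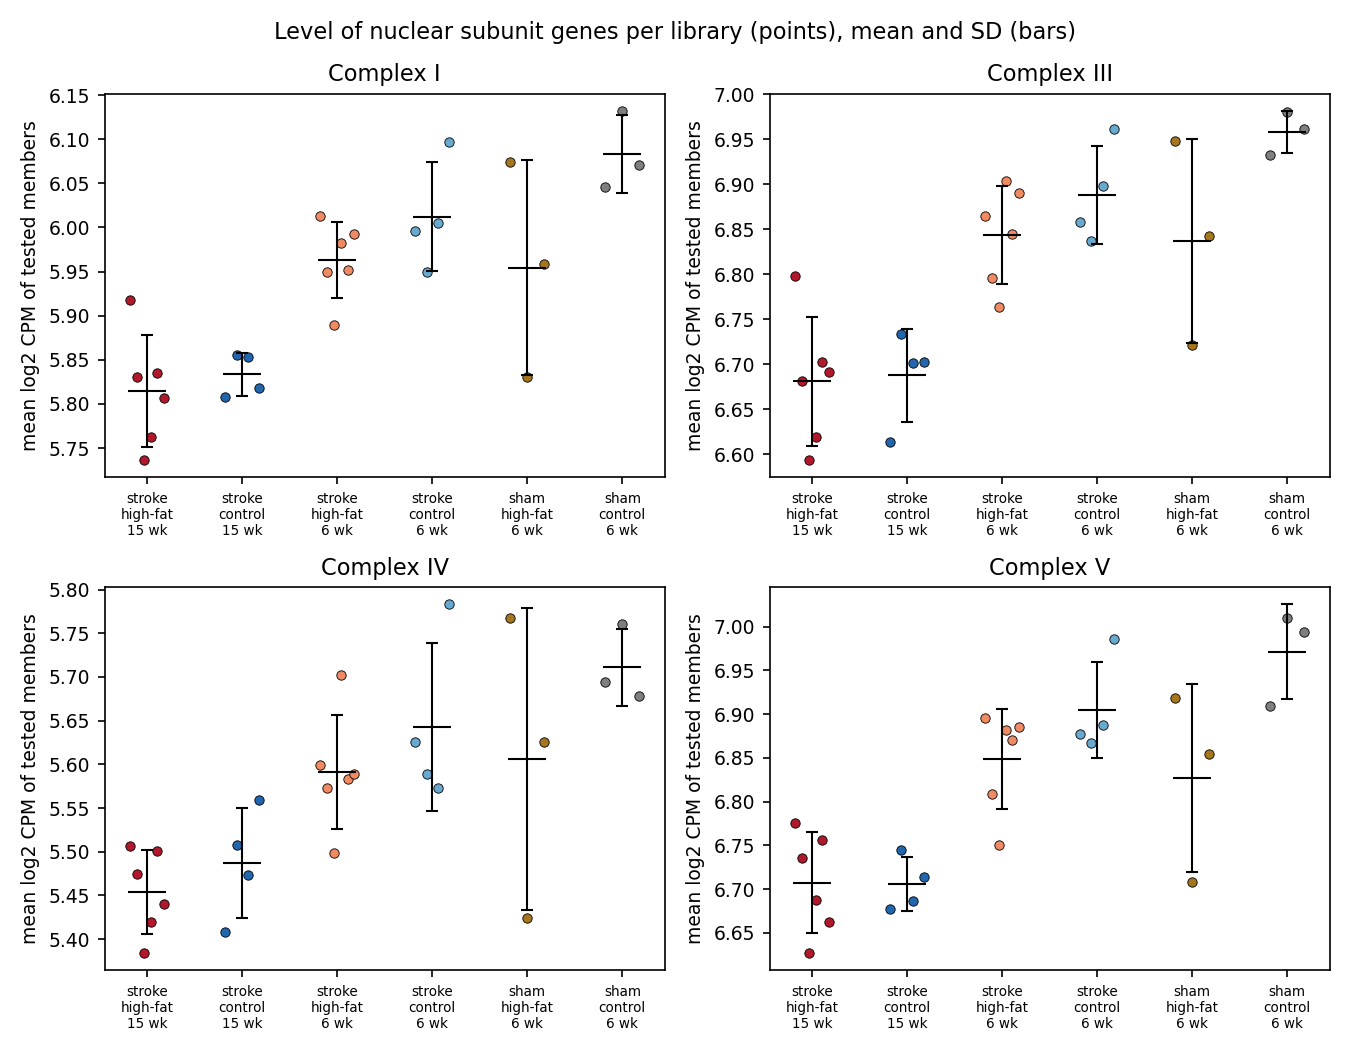
Mean log2 CPM of the tested nuclear subunit genes of each complex (y axis) in every library (points), by group on the x axis, with the group mean and SD as bars. In each panel the 15-week stroke groups have lower means than the 6-week stroke groups on the same diet, and the CD sham libraries have the highest mean.

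Among the complex I genes, Ndufs7 had the smallest p on HFD. It encodes a core subunit that carries an iron-sulfur cluster close to the site where ubiquinone is reduced. Its level was 39.1, 40.9 and 44.2 CPM (lowest, median and highest of 6) after 15 weeks and 47.8, 55.4 and 59.7 CPM after 6 weeks on HFD. Every 15-week library was below every 6-week library, and the log2 fold change was -0.40 ± 0.07 (SE), with an adjusted p of 0.00386 by edgeR. On CD Ndufs7 had 43.1, 46.0, 42.1 and 51.7 CPM after 15 weeks and 52.3, 49.5, 44.5 and 54.8 CPM after 6 weeks. These groups overlapped, and its log2 fold change of -0.14 ± 0.08 did not pass (adjusted p = 0.398 by edgeR). The difference between the diets did not pass either, at -0.26 ± 0.10 (adjusted p = 0.993 by edgeR).

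Ndufa2, an accessory subunit of the arm that binds NADH, was lower on both diets. After 15 weeks on HFD it had 36.0, 38.9 and 45.4 CPM (lowest, median and highest of 6), against 47.5, 48.8 and 52.8 CPM after 6 weeks. On CD it had 38.4, 41.4, 36.0 and 39.9 CPM after 15 weeks, against 48.7, 53.2, 44.9 and 50.4 CPM after 6 weeks. Neither pair of groups overlapped. The log2 fold changes were -0.32 ± 0.06 (adjusted p = 0.00553) on HFD and -0.34 ± 0.07 (adjusted p = 0.0357) on CD, both by edgeR. Ndufb11, an accessory subunit of the membrane arm, did the same, at -0.24 ± 0.05 on HFD and -0.26 ± 0.06 on CD.

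The other complex I genes called on HFD were Ndufv1, the core subunit that binds NADH and FMN, and the accessory subunits Ndufa11, Ndufa7, Ndufa9, Ndufb5 and Ndufc2. Their log2 fold changes lay between -0.27 for Ndufa11 and -0.20 for Ndufb5. Ndufv1 was 134, 136 and 148 CPM (lowest, median and highest) after 15 weeks and 150 to 179 CPM after 6 weeks on HFD, with no overlap. Ndufs4, an accessory subunit whose loss in mice gives a Leigh-like brain disease, was called on CD alone, at -0.36 ± 0.07 (adjusted p = 0.0357 by edgeR). It had 49.2, 52.1, 52.4 and 48.6 CPM after 15 weeks and 61.2, 60.4, 65.2 and 72.2 CPM after 6 weeks there. On HFD it had 46.0, 52.98 and 59.1 CPM (lowest, median and highest) after 15 weeks and 52.7, 57.9 and 62.4 CPM after 6 weeks. The difference of its change between the diets was 0.24 ± 0.09, with an adjusted p of 0.993 by edgeR.

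In complex III the small subunit Uqcr10 was called on both diets. Its level was 52.8, 60.5 and 63.4 CPM after 15 weeks and 64.6, 70.7 and 74.2 CPM after 6 weeks on HFD (lowest, median and highest of 6 each). On CD it was 56.7, 60.3, 61.3 and 63.0 CPM after 15 weeks and 69.6, 70.3, 72.3 and 76.5 CPM after 6 weeks. The groups did not overlap on either diet, and the log2 fold change was -0.24 ± 0.05 on HFD and -0.26 ± 0.06 on CD. Uqcr11, the smallest subunit of the complex, fell by 0.29 on the log2 scale on HFD (adjusted p = 0.00748 by edgeR), and the core protein Uqcrc1 by 0.17 (adjusted p = 0.0476 by edgeR). All 8 complex III genes had a log2 fold change below 0 on both diets.

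In complex IV only the general isoform Cox7a2 was called on both diets. After 15 weeks on HFD it had 91.3, 101 and 110 CPM (lowest, median and highest of 6), against 109, 119 and 125 CPM after 6 weeks, and these ranges overlapped. On CD it had 93.7, 107, 103 and 101 CPM after 15 weeks, against 122, 121, 139 and 137 CPM after 6 weeks, with no overlap. Its log2 fold change was -0.22 ± 0.06 on HFD (adjusted p = 0.0408) and -0.36 ± 0.07 on CD (adjusted p = 0.0357), both by edgeR. Cox8a was called on HFD, at -0.26 ± 0.07 (adjusted p = 0.0394 by edgeR), and had -0.06 ± 0.08 on CD. The low isoforms Cox4i2, Cox6b2 and Cox7a1 passed in neither, with SEs of 0.20 to 0.34.

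Complex V genes that were lower on both diets were Atp5o, the stalk protein that confers oligomycin sensitivity, and Atp5j2, the f subunit of the membrane part. Atp5o had 142, 147 and 153 CPM after 15 weeks and 158, 171 and 173 CPM after 6 weeks on HFD (lowest, median and highest of 6 each). On CD Atp5o had 141, 149, 148 and 145 CPM after 15 weeks and 171, 176, 163 and 186 CPM after 6 weeks. The groups did not overlap on either diet, with log2 fold changes of -0.19 ± 0.05 on HFD and -0.25 ± 0.06 on CD. Atp5j2 was 69.6 to 78.0 CPM after 15 weeks and 81.6 to 92.9 CPM after 6 weeks on HFD, also without overlap. Atp5d and Atp5e, parts of the central stalk, were called on HFD at -0.25 ± 0.06 and -0.37 ± 0.09, as was Atp5g1, one of the genes for the rotating ring, at -0.26 ± 0.06. Atp5k, the e subunit, was called on CD at -0.27 ± 0.06. The catalytic head genes Atp5a1 and Atp5b were not called, at -0.07 ± 0.04 and -0.10 ± 0.05 on HFD.

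**Figure D2:**
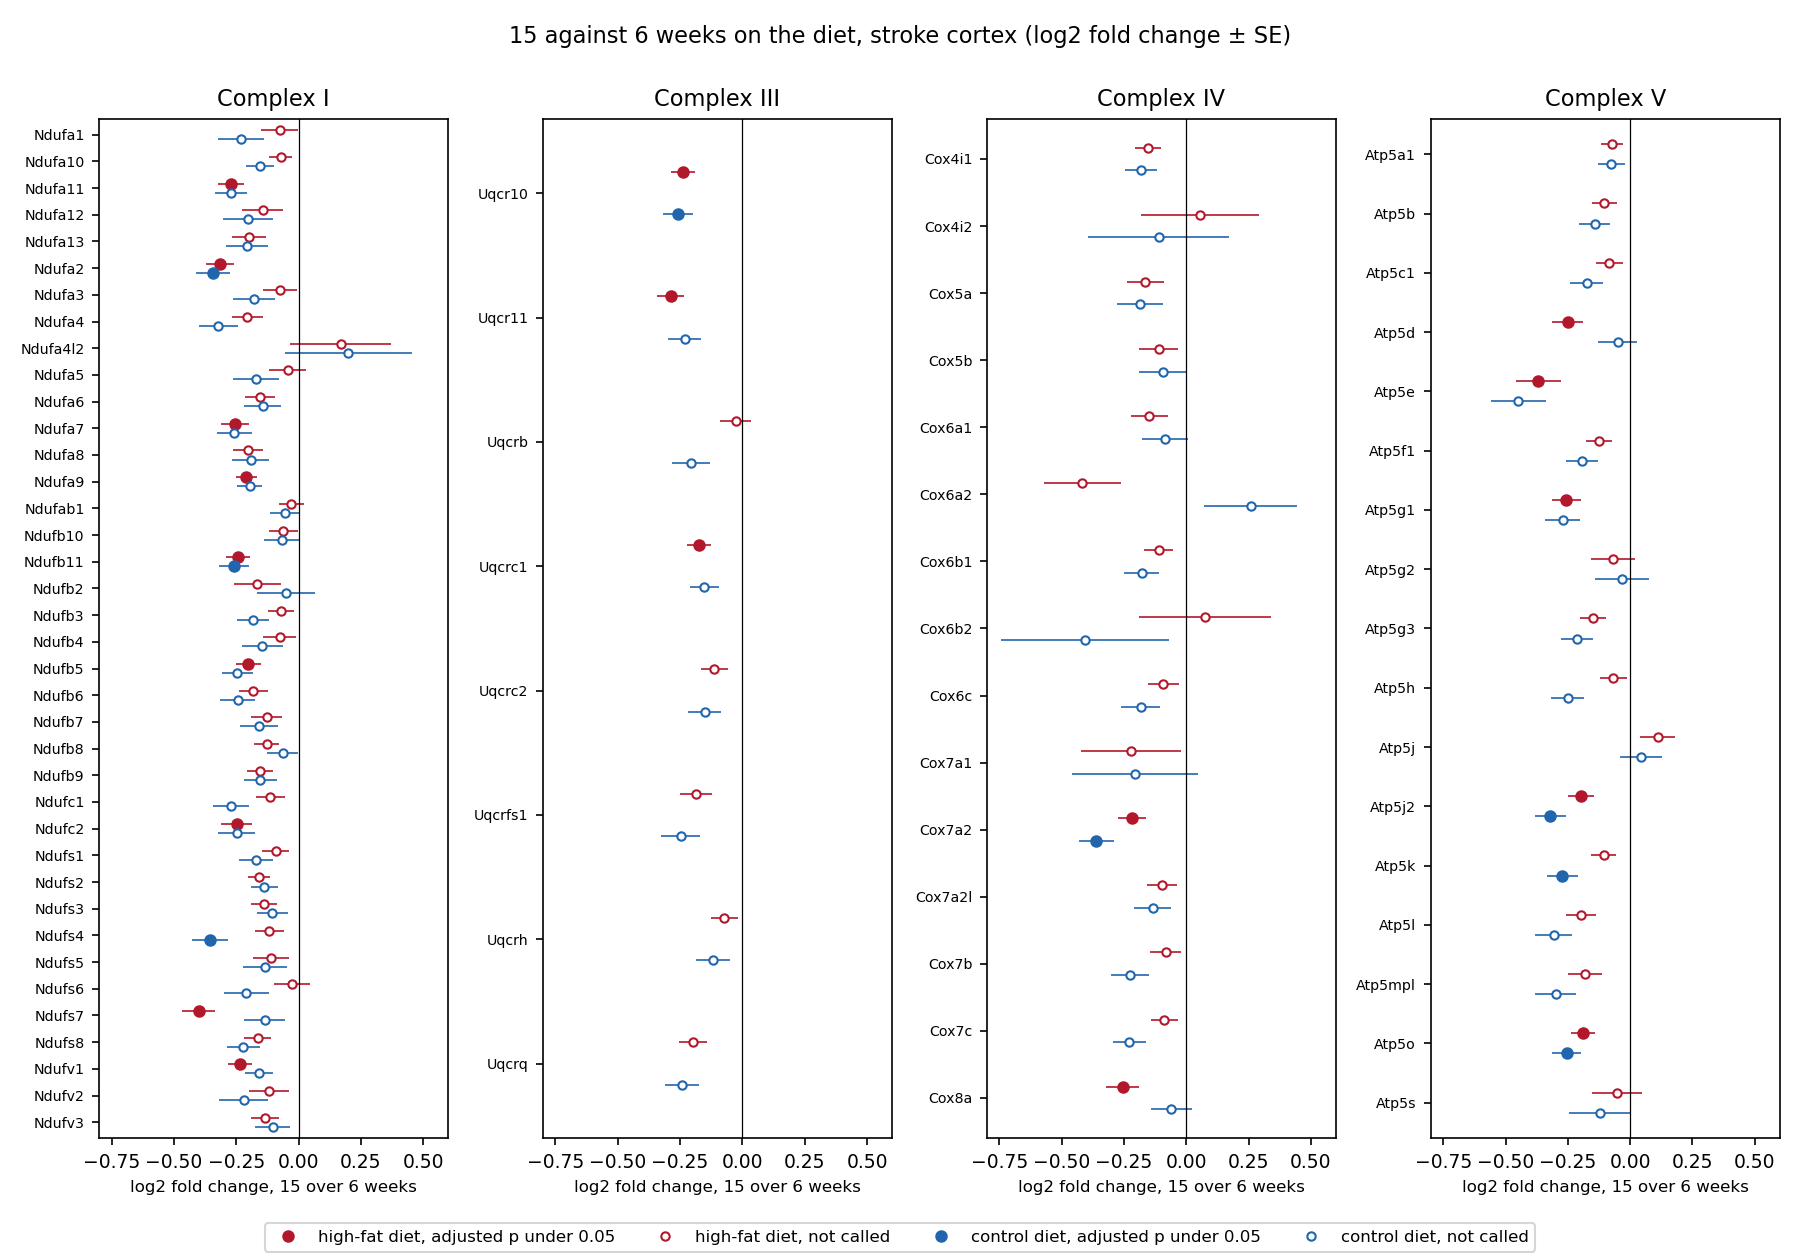
Log2 fold change of each tested gene, 15 over 6 weeks in stroke cortex (x axis, bars are SE), for HFD in red and CD in blue, by complex; filled points have an adjusted p under 0.05. Nearly all points lie left of 0 on both diets, 74 of 78 on HFD and 75 of 78 on CD.

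The comparisons on HFD and CD share no library. The genes called on both diets were Atp5j2, Atp5o, Cox7a2, Ndufa2, Ndufb11 and Uqcr10, which are 31.6% of the 19 called on HFD and 75% of the 8 called on CD. In all, 21 genes were called on at least one diet. For the difference between the diets in the change with weeks 0 of the 78 genes were called by edgeR, where 0% of all 16325 genes were called. Of the 16325 genes 792 had an unadjusted p under 0.05 there, and DESeq2 and voom also called 0 of the 78. Groups without overlap, with 15 weeks lower, were found for 13 of 78 genes (16.7%) on HFD, where 1.23% of all genes showed this, and for 34 of 78 (43.6%) on CD, where 5.93% did.

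**Figure D3:**
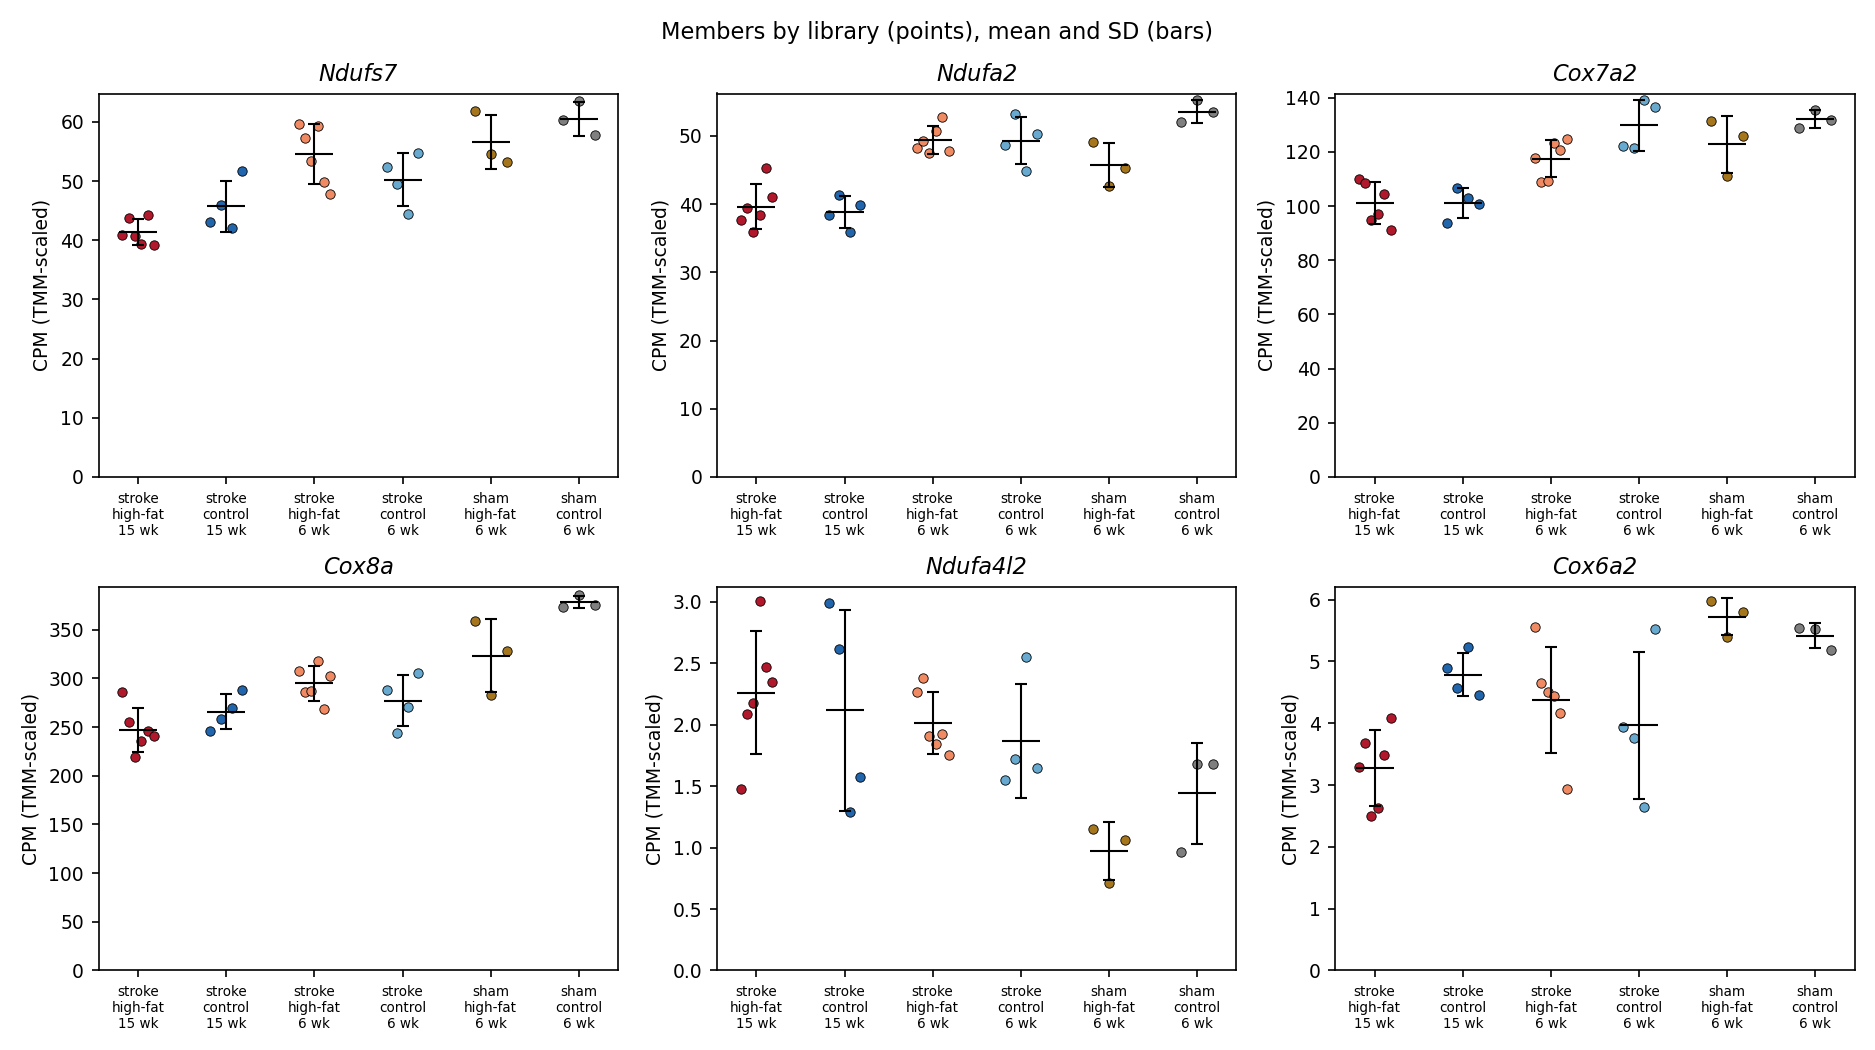
CPM of 6 genes (y axis, starting at 0) in every library (points), with group means and SD as bars. Ndufs7, Ndufa2 and Cox7a2 have lower means in the 15-week stroke groups than in the 6-week stroke groups, Cox8a and Cox6a2 are highest in sham cortex, and Ndufa4l2 has its lowest mean, 0.974 CPM, in HFD sham cortex.

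Of 13 subunits encoded in mitochondrial DNA 10 were among the genes tested, and their calls, all of them on HFD, ran the other way. Why the rest were not among the genes tested was not examined. After 15 weeks on HFD mt-Nd5, mt-Nd2, mt-Nd6 and mt-Cytb rose and 0 of the 10 tested fell, with a median log2 fold change of 0.22. mt-Nd5, a pump subunit of complex I, rose by 0.60 ± 0.13 (adjusted p = 0.0187 by edgeR), and mt-Nd2 by 0.42 ± 0.10 (adjusted p = 0.0237 by edgeR). On CD 0 of the 10 were called by edgeR, 2 had an unadjusted p under 0.05 (mt-Nd2 at 0.32 ± 0.12 and mt-Co3 at -1.11 ± 0.48), and the median was 0.06. The summed level of these subunits was 20300 to 26550 CPM after 15 weeks and 20420 to 23950 CPM after 6 weeks on HFD. On CD it was 20580 to 24760 CPM (mean 22800) after 15 weeks and 22270 to 25340 CPM (mean 23560) after 6 weeks. The groups thus overlapped in total on both diets, and on CD the mean was not higher after 15 weeks.

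Some other nuclear genes of the mitochondrion were called lower. Among 76 tested mitochondrial ribosome genes 7 fell and 0 rose on HFD (median -0.12), and 4 fell and 0 rose on CD (median -0.15). Complex I assembly factors had 1 call of 15 on each diet, Ndufaf3 at -0.24 ± 0.05 on HFD and Ndufaf1 at -0.34 ± 0.08 on CD. Of 21 complex IV assembly genes 1 fell on HFD, Higd2a at -0.27 ± 0.06, and 0 on CD, where 4 had an unadjusted p under 0.05. Cyc1, a heme-bearing subunit of complex III that the name rule does not cover, fell by 0.22 on HFD (adjusted p = 0.0234 by edgeR). Uqcc2, an assembly factor of that complex, fell by 0.37 on CD (adjusted p = 0.0448 by edgeR). Slc25a4, the ATP and ADP carrier, fell by 0.18 on HFD, 1 of 9 carrier and porin genes.

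Fuel pathways and regulators had few calls. None of 4 complex II genes, 16 citric acid cycle genes or 15 regulators of mitochondrial biogenesis was called by edgeR on either diet. At an unadjusted p under 0.05 there were 1, 4 and 4 of them on HFD and 2, 4 and 1 on CD. Glycolysis had 1 call of 17 on each diet, Aldoc at -0.33 ± 0.06 on HFD and Pgk1 at -0.25 ± 0.06 on CD, with medians of -0.04 on both. Cytosolic ribosome genes, 84 in number, had 0 calls on either diet by edgeR, with 16 and 23 at an unadjusted p under 0.05 on HFD and CD and medians of -0.04 and -0.12.

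**Figure D4:**
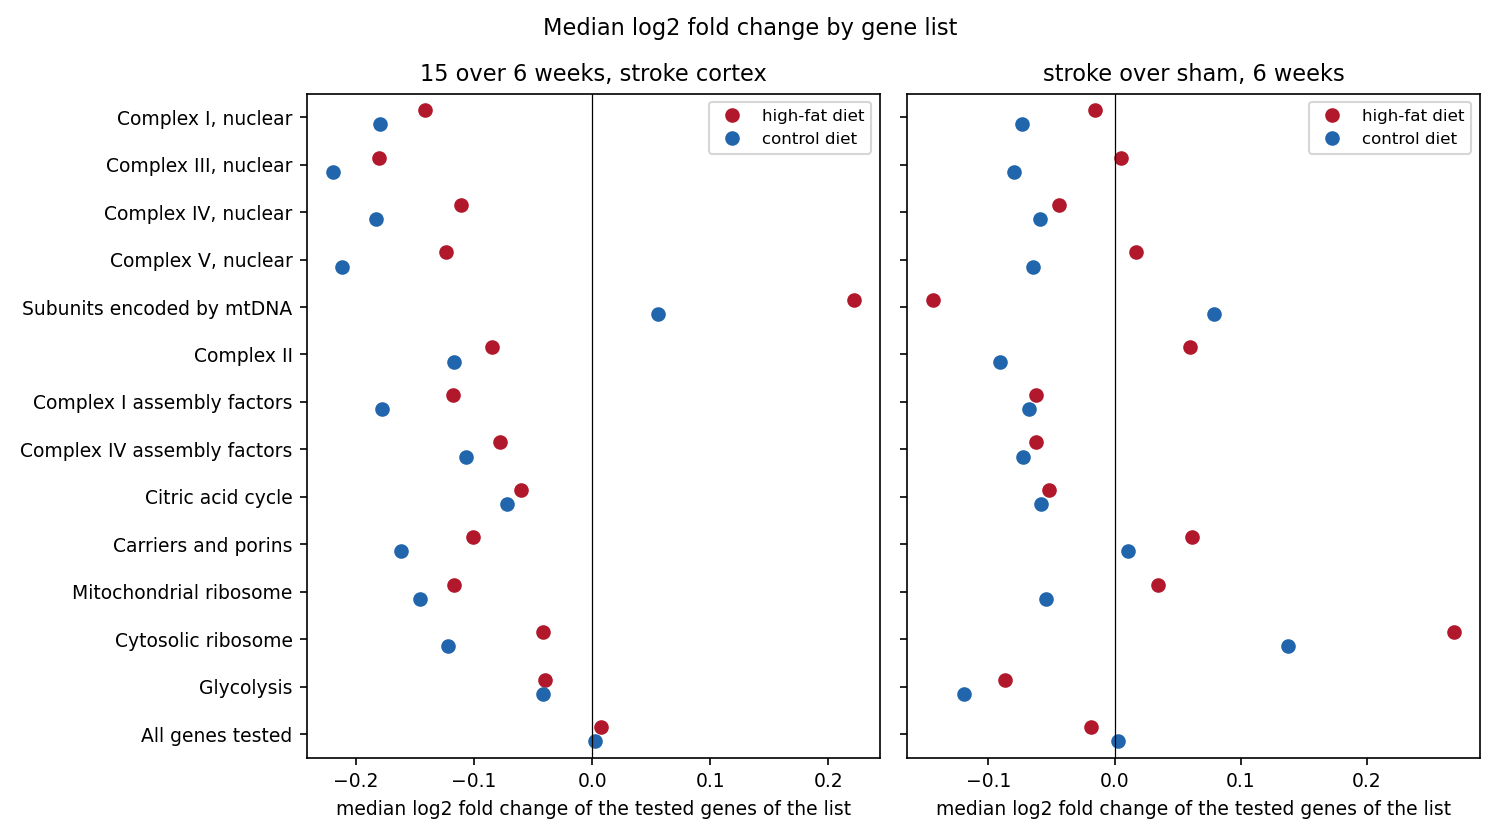
Median log2 fold change of the tested genes of each list (x axis) for 15 over 6 weeks in stroke cortex (left) and for stroke over sham at 6 weeks (right), HFD in red and CD in blue. On the left the nuclear subunits of every complex lie below 0 and those encoded in mitochondrial DNA above 0 on both diets; on the right the cytosolic ribosome stands above 0 on both.

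One property of the libraries moved with the weeks. The counts have a row for reads that met no counted feature, and its part of all counts is called the share outside genes here. Whether reads in introns fall in that row is not given. The share was 22.8% to 32.1% after 15 weeks and 20.6% to 22.4% after 6 weeks on HFD. On CD it was 22.7% to 27.9% after 15 weeks and 18.9% to 22.6% after 6 weeks. With that share as a covariate, 0 of the 78 genes and 0 of all genes were called on either diet, and 68 of 78 on HFD and 72 of 78 on CD were below 0, with medians of -0.06 and -0.14. The share and the weeks do not overlap on either diet, so they cannot be told apart. The 15-week libraries closest to the 6-week shares were HFD replicate 5 with 22.8% and CD replicate 2 with 22.7%, and their mean log2 CPM of 6.06 and 6.07 lay below all 6-week libraries of their diet. Sham libraries, with shares of 23.2% to 27.6%, had levels of 6.04 to 6.34. The part of the share in the result was not tested beyond the fit given.

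The subunit transcripts are short, with a median of 787 bases over the 78 genes against 2923 bases over all tested genes. With the trend of each library on transcript length removed, 11 of 78 genes were called lower on HFD and 0 on CD. Of all genes 1.05% and 0.0368% were called lower there, and the medians of the 78 were -0.09 and -0.12. Without the 15-week libraries that were low in phagocyte genes, 29 were called lower on HFD and 15 on CD. Of all genes 5.13% and 1.33% were called lower in these fits. Leaving out one library at a time moved the counts as well. On HFD 9, 11, 11 and 12 genes were called without 6-week replicate 1, 4, 5 or 6, and 29, 12, 10, 8 and 12 without 15-week replicate 1, 2, 3, 4 or 6. On CD 4 were called without 6-week replicate 1, 1 without 15-week replicate 4, and 0 without 6-week replicate 2, 3 or 4 or 15-week replicate 1 or 3. Calls over all genes, in either direction, ranged in these fits from 135 to 1308 on HFD and from 0 to 133 on CD. The 1308 calls came without 15-week HFD replicate 1.

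Cell type lists had few calls with the weeks: 0 of 12 phagocyte markers were called on either diet, with 0 at an unadjusted p under 0.05. Of 12 excitatory neuron markers Neurod6 fell on HFD, at -0.42 ± 0.07, and 0 were called on CD, where 4 had an unadjusted p under 0.05. Of 9 interneuron markers Vip fell on HFD, and of 9 astrocyte markers Gjb6 and Aldoc. The part of these markers in the result was not tested beyond the fits given.

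Between stroke and sham cortex at 6 weeks few of the subunit genes passed the test, while 3769 of all genes were called on HFD and 1253 on CD. On HFD 1 of 78 genes was lower, where 8.85% of all genes were called lower, and 1 was higher, where 14.2% were called higher. On CD 4 of 78 were lower, where 2.57% were called lower, and 0 higher, where 5.1% were called higher. The median log2 fold change was -0.01 on HFD, with 45 of 78 below 0, and -0.07 on CD, with 68 of 78 below 0. On HFD it was -0.07, with 63 of 78 below 0, without the libraries high in choroid plexus genes, -0.06 with 69 below 0 with the share of counts outside genes as a covariate, and -0.07 with 65 below 0 with a trend on transcript length removed. Over all genes the medians were -0.02 and 0.00. On CD the median was -0.11 with 72 of 78 below 0 with that share as a covariate, and -0.04 with 58 below 0 with the length trend removed. The share outside genes was 20.6% to 22.4% in stroke and 23.2% to 27.6% in sham libraries on HFD. On CD it was 18.9% to 22.6% in stroke and 23.4% to 26.7% in sham libraries. These ranges do not overlap on either diet, so the share and stroke cannot be told apart. In the CD groups 15 of 78 genes (19.2%) were lower in every stroke library than in every sham library, where 11.6% of all genes were.

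Cox8a changed most among the genes lower in CD stroke. It had 288, 244, 270 and 305 CPM in stroke cortex, against 374, 386 and 376 CPM in sham cortex. The groups did not overlap, and the log2 fold change was -0.45 ± 0.09 with an adjusted p of 0.00493 by edgeR. On HFD it had 268, 295 and 318 CPM in stroke cortex (lowest, median and highest of 6) and 359, 283 and 328 CPM in sham cortex. That change of -0.13 ± 0.08 did not pass (adjusted p = 0.249 by edgeR). The difference between the diets was 0.32 ± 0.12 (adjusted p = 0.832 by edgeR), so it did not pass.

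Atp5a1, the alpha subunit of the catalytic head, was lower in stroke on both diets. In stroke cortex on HFD it had 863, 901 and 955 CPM (lowest, median and highest of 6), against 1061, 952 and 1004 CPM in sham cortex, which overlap. On CD it had 943, 878, 908 and 1004 CPM in stroke cortex, against 1046, 1108 and 1073 CPM in sham cortex, which do not. The log2 fold changes were -0.16 ± 0.05 (adjusted p = 0.0355) and -0.20 ± 0.06 (adjusted p = 0.0313) by edgeR. Its partner Atp5b had -0.02 ± 0.06 on HFD and -0.10 ± 0.07 on CD and was not called. Ndufb8, an accessory subunit of complex I that is often used to gauge its assembly, and Ndufv1 were called lower on CD, at -0.24 ± 0.07 and -0.21 ± 0.06. They were not called on HFD, but the test of the difference between the diets called neither. On HFD Ndufb8 had 62.35 to 67.01 CPM in stroke and 72.62, 57.44 and 69.05 CPM in sham cortex. Ndufv1 had 150.5 to 178.7 CPM in stroke and 179.1, 164.5 and 161.9 CPM in sham cortex there. Leaving out one library removed calls in this comparison: Cox8a was the only gene called without stroke replicate 2 or 3, or without any one of the sham replicates, of CD, and 7 genes were called without stroke replicate 4. On HFD Atp5a1 was no longer called without stroke replicate 2, 3 or 5 or without sham replicate 1 or 3.

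Ndufa4l2 was the gene that rose with stroke on HFD. It had 1.76, 1.92 and 2.38 CPM in stroke cortex (lowest, median and highest of 6), against 1.15, 0.709 and 1.06 CPM in sham cortex. Every stroke library was above every sham library, with a log2 fold change of 1.04 ± 0.28 and an adjusted p of 0.00945 by edgeR. On CD it had 1.55, 1.72, 2.55 and 1.65 CPM in stroke cortex and 0.969, 1.68 and 1.68 CPM in sham cortex, which overlap, and the change of 0.35 ± 0.28 did not pass. The difference between the diets, 0.69 ± 0.40, did not pass either (adjusted p = 0.832 by edgeR). Without the libraries high in choroid plexus genes the change on HFD was 0.91, without sham replicate 2 alone it was 0.87, and the gene was called in neither case; without sham replicate 1, 2 of the 78 genes were called higher. Of the 8 pericyte and smooth muscle markers, a cell type in which this gene is known in mouse brain, 3 rose in the same comparison and 0 fell, and they summed to 191 to 243 CPM in stroke cortex against 166 to 175 CPM in sham cortex. Their part in the result was not tested.

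**Figure D5:**
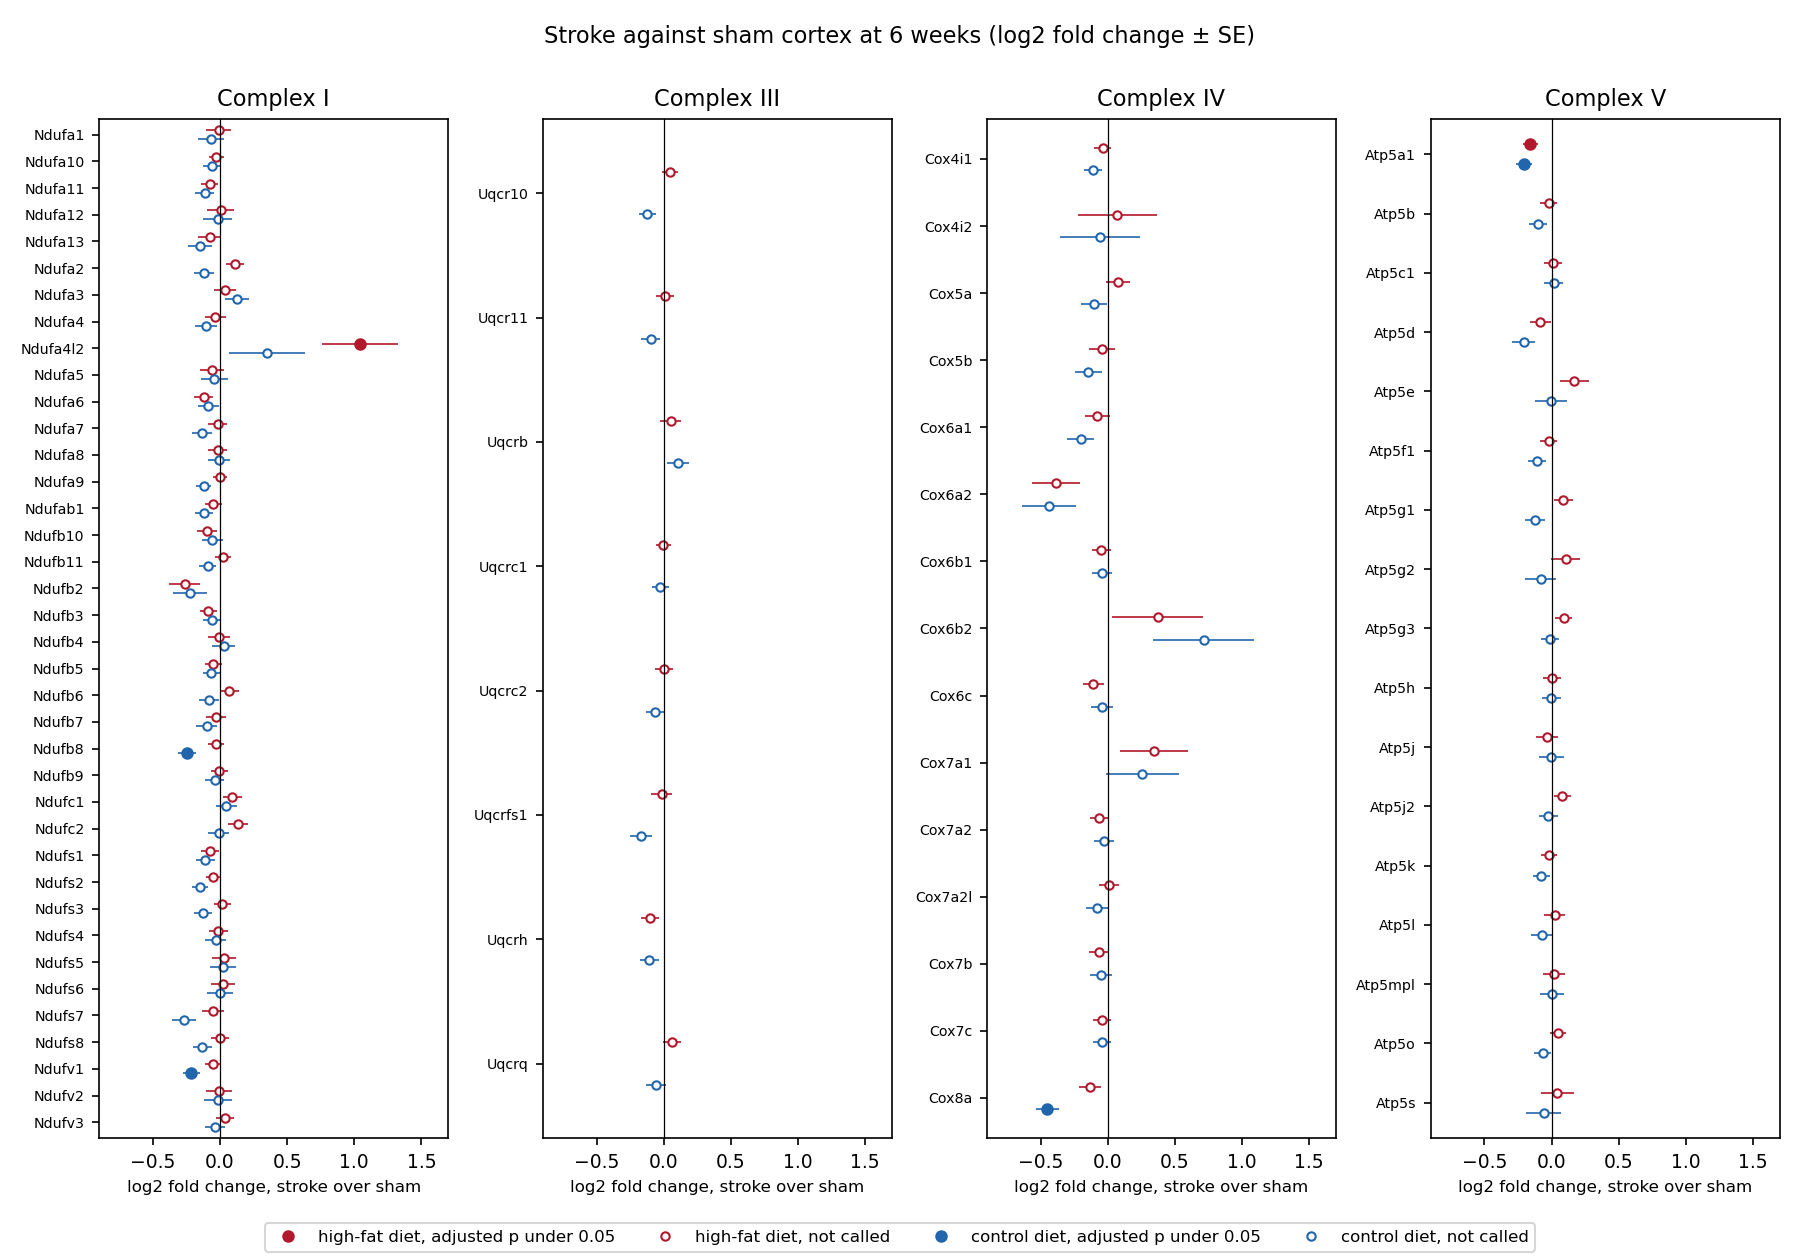
Log2 fold change of each tested gene, stroke over sham at 6 weeks (x axis, bars are SE), for HFD in red and CD in blue, by complex; filled points have an adjusted p under 0.05. Most points lie close to 0, and Ndufa4l2 at 1.04 on HFD and Cox8a at -0.45 on CD stand out among the filled ones.

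Around the subunits, genes of the cytosolic ribosome and of energy metabolism also differed between stroke and sham. Cytosolic ribosome genes rose in 57 of 84 cases on HFD and in 2 of 84 on CD. Of all genes 14.2% and 5.1% were called higher. The ribosome genes summed to 14720 ± 618 CPM in stroke and 12140 ± 1360 CPM in sham cortex on HFD (SD). On CD they summed to 14320 ± 717 CPM in stroke and 13090 ± 176 CPM in sham cortex. Hk2, a hexokinase that binds mitochondria, rose by 1.39 ± 0.31 on HFD (adjusted p = 0.00263) and by 1.43 ± 0.33 on CD (adjusted p = 0.0126), both by edgeR. It was the 1 call upward among 17 glycolysis genes on each diet, where 3 fell on HFD and 1 on CD, with medians of -0.09 on HFD and -0.12 on CD and 13 and 15 of 17 below 0. Ucp2, an uncoupling protein abundant in phagocytes, rose by 2.02 ± 0.46 on HFD. Dlst, of the citric acid cycle, fell by 0.17 on HFD and by 0.20 on CD. Of 15 regulators of mitochondrial biogenesis, the coactivators Ppargc1a and Ppargc1b fell by 0.32 and 0.48 on HFD, where 8.85% of all genes were called lower. Tfam, which packs and transcribes mitochondrial DNA, fell by 0.22 on CD. There 1 of the 15 was called lower and 0 higher, with 9 below 0 and a median of -0.02. The mean log2 CPM of the list was 3.98 in stroke and 4.05 in sham cortex on HFD, and 3.99 and 3.98 on CD. The mitochondrially encoded subunits had 0 calls of 10 on either diet by edgeR, with 1 and 0 at an unadjusted p under 0.05 and medians of -0.14 and 0.08.

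Markers of cell types also moved with stroke. All 12 phagocyte markers rose on both diets, with medians of 2.11 on HFD and 1.60 on CD. Of the 12 excitatory neuron markers 6 fell on HFD and 0 on CD, where 6 had an unadjusted p under 0.05, with medians of -0.37 and -0.30. They summed to 4734 to 5754 CPM in stroke cortex and 6333 to 7211 CPM in sham cortex on HFD, and to 4971 to 5866 CPM in stroke cortex and 6278 to 6598 CPM in sham cortex on CD. With the mean of that neuron list as a covariate, 0 of 78 subunit genes were called on HFD and 1 lower on CD, and over all genes the calls numbered 737 on HFD and 362 on CD, against 3769 and 1253 without it. The medians of the subunit genes were then 0.02 on HFD and -0.06 on CD, against -0.01 and -0.07.

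Diet alone moved no subunit gene past the threshold. High-fat against control diet called 0 of 78 genes in 15-week stroke cortex, in 6-week stroke cortex and in sham cortex, where 0% of all genes were called in each by edgeR, and DESeq2 and voom with quality weights called 0 of the 78 as well. At an unadjusted p under 0.05 there were 1, 7 and 20 of the 78, and 1299, 1141 and 782 of all 16325 genes. In 15-week stroke cortex the median log2 fold change was -0.01, with 49 of 78 below 0. In 6-week stroke cortex it was -0.06, with 62 of 78 below 0, against -0.03 with 51 below 0 without the libraries high in choroid plexus genes, and the smallest p belonged to Cox7c at -0.16 ± 0.06 (adjusted p = 0.667 by edgeR), Ndufb3 and Ndufs4.

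In sham cortex most of these genes leaned lower on HFD without passing the test. There the median was -0.12, with 74 of 78 below 0, and 21 of 78 genes (26.9%) were lower in every HFD than in every CD library, where 7% of all genes were. The mean log2 CPM of the 78 genes was 6.29, 6.04 and 6.18 in the HFD libraries and 6.26, 6.34 and 6.29 in the CD libraries. The lowest value belongs to replicate 2, which is also high in choroid plexus genes, and without the libraries high in these genes the median was -0.05, with 60 of 78 below 0. With the trend on transcript length removed it was -0.05, with 57 of 78 below 0. Atp5g1 had the smallest p, at 125, 108 and 109 CPM in HFD sham cortex and 134, 137 and 137 CPM in CD sham cortex. Its log2 fold change of -0.25 ± 0.08 did not pass (adjusted p = 0.965 by edgeR). The test of whether the stroke difference itself differed between the diets also called 0 of 78 genes, where 0% of all genes were called by edgeR, with 914 of all genes at an unadjusted p under 0.05 and 0 of the 78 called by DESeq2 or voom. It shares its libraries with the comparisons above.

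Cox6a2 had the largest difference between the diets in 15-week stroke cortex. It had 2.49, 3.39 and 4.09 CPM on HFD (lowest, median and highest of 6), against 4.89, 4.57, 5.23 and 4.46 CPM on CD. The groups did not overlap, but the log2 fold change of -0.54 ± 0.17 did not pass (adjusted p = 0.480 by edgeR). After 6 weeks the groups overlapped, at 2.93, 4.47 and 5.56 CPM on HFD against 3.94, 3.76, 2.64 and 5.53 CPM on CD. In sham cortex it had 5.98, 5.39 and 5.80 CPM on HFD and 5.53, 5.53 and 5.18 CPM on CD. Pvalb, the marker of the interneurons in which Cox6a2 is known, had -0.20 ± 0.14 between the diets in 15-week stroke cortex, and 0 of 9 interneuron markers were called there by edgeR, with 2 at an unadjusted p under 0.05. Skeletal muscle markers, a list that also holds Pvalb, summed to 45.9 to 61.2 CPM on HFD and 57.8 to 71.97 CPM on CD in those groups. Their part in the result was not tested.

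Some levels rest on counts that could be shared between genes. At least one other gene matched the transcript of 27 of the 85 genes, 24 of them tested, with an identity of at least 95% along 100 bases or more. Among the genes described, Atp5g1, Atp5k, Atp5o, Ndufb8, Ndufb11, Cox7c and Uqcr11 are in this group, and their counts are uncertain to that degree. Another gene overlaps 10 genes on the same strand and 27 on the other strand, and whether the counting used strand is not given in the sources used here. Ndufa2, Atp5a1, Cox6a2 and Ndufa4l2 are among those with a gene on the other strand.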

How the data were processed

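RNA was made into stranded TruSeq total RNA libraries and sequenced as paired ends, per the labels' protocols. The deposited values are whole read counts per gene for 26 libraries, and the submitters' processing notes name Trim Galore, STAR, featureCounts, HTSeq and the mm9 build, with no roles or versions. Rows that name no gene, 45.69% to 58.16% of all counts, entered neither the library sizes nor the tests. Of 39179 identifiers 37607 were named from the tables given, and transcript lengths came from GENCODE M21. Counts were filtered (filterByExpr, minimum 10), scaled by TMM and fitted in edgeR 4.0.16 (R 4.3.3) with the quasi-likelihood test over all 26 libraries and 6 groups, and p-values were adjusted by Benjamini-Hochberg over 16325 genes with a threshold of 0.05. SE is the log2 fold change divided by the square root of F, and mean log2 CPM uses a prior count of 2. DESeq2 1.42.0, voom with quality weights (limma 3.58.1), other scalings, filters and covariates, and each library left out were alternatives. The fit was tested on simulated data. No 2 libraries of a group agreed within sampling noise: over 48 pairs chi-square per degree of freedom was 3.42 to 72.4. The common dispersion was 0.0184. Genes named are up to 10 called per direction and comparison by smallest p, the 3 smallest p where none was called, sets of isoforms, the highest and lowest gene of a complex per length, and up to 3 genes of each other list by smallest p. Ndufb5, Ndufc2, Uqcrc1, Atp5d, Atp5e and mt-Cytb were named after their values were seen. The members, lists and tests were chosen with earlier results of these data known.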

Additional observations from a re-analysis of the deposited data

Results flagged for a closer look

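In groups of 4 to 10 libraries, 168 sets of values were examined for a single library set apart from the others of its group, and chance alone sets apart about 1 in 20. There were 7 such sets, all single genes. Cox4i2 had 1.43 CPM in replicate 2 of the 6-week HFD stroke group, with the next highest at 0.922 CPM. In replicate 3 of the 6-week CD stroke group Atp5g2 had 24.1 CPM, with the next lowest at 29.3 CPM, and Ndufa4l2 had 2.55 CPM, with the next highest at 1.72 CPM. In the 15-week HFD stroke group Atp5g3 had 103 CPM in replicate 6, with the next lowest at 113 CPM, Ndufb3 had 47 CPM in replicate 1, with the next highest at 42.8 CPM, and Ndufv1 had 148 CPM in replicate 5, with the next highest at 139 CPM. Ndufb11 had 67.3 CPM in replicate 4 of the 15-week CD stroke group, with the next highest at 61.3 CPM.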

How the results depend on the processing

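No called value of a single gene changed its direction, but medians of the subunit genes did. For stroke over sham on HFD the median of -0.01 became 0.02 with the neuron covariate and 0.01 with the compared groups alone. For the difference of the stroke effect between diets the median of 0.07 became -0.01 with the length trend, with 41 in place of 16 of 78 genes below 0, and for diet in 15-week stroke cortex -0.01 became 0.00 with the share outside genes, with 36 in place of 49 below 0. The mean log2 CPM of each complex moved by less than the spread between replicates under the alternatives run for it. The counts of calls did move, and the cause was not tested. For 15 over 6 weeks on HFD, where 19 subunit genes and 384 of all genes were called, voom gave 36 subunit genes and 1880 genes, no filter 11 and 160, fitting the compared groups alone 10 and 127, the share outside genes as a covariate 0 and 0, the length trend 11 subunit genes, and leaving out the libraries low in phagocyte genes 29 and 1715; DESeq2 gave 716 genes and the neuron covariate 636. On CD, where 8 subunit genes and 92 genes were called, the scaling of DESeq2 (RLE) in edgeR gave 4 and 44, DESeq2 22 and 286, voom 17 and 329, no filter 0 and 0, the compared groups alone 0 and 0, removing 51 mitochondrial, rRNA and haemoglobin genes 4 and 61, the neuron covariate 20 and 656, the share outside genes 0 and 0, the length trend 0 and 24, and leaving out the library low in phagocyte genes 15 and 514.

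For stroke over sham on HFD, where 1 subunit gene was lower, 1 higher and 3769 genes were called, voom gave 3 lower and 5834 genes, no filter and the compared groups alone 0 lower, the neuron covariate 0 lower, 0 higher and 737 genes, the share outside genes 0 higher and 1960 genes, the length trend 5 lower, and leaving out the libraries high in choroid plexus genes 0 higher and 1833 genes. On CD, where 4 were lower and 1253 genes were called, voom gave 8 and 2860, no filter 2 and 767, the neuron covariate 1 and 362, the share outside genes 8 and 725, and the compared groups alone 2453 genes. For the diet comparisons, with 0 genes called, DESeq2 called 1 gene and voom 1 for the difference of the stroke effect between diets, the compared groups alone 1 in 6-week stroke cortex, DESeq2 10 in 15-week stroke cortex, and DESeq2 2 and voom 1 in sham cortex.

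Leaving out one library at a time gave 8 to 29 subunit genes and 135 to 1308 genes for the weeks on HFD, and 0 to 8 and 0 to 133 on CD. For stroke it gave 0 to 1 lower, 0 to 2 higher and 1991 to 3736 genes on HFD, and 1 to 7 lower and 303 to 1448 genes on CD, and 0 to 1 genes for diet in 15-week stroke cortex. Apart from leaving out single libraries, the alternatives gave 3799 values, those of the 37 named subunit genes and the medians of the subunit genes. Of these, 3656 stayed the same, a gene on its side of the threshold or a median within the spread between replicates. Another 52 passed the threshold anew, 87 no longer passed, and 4, all of them medians, moved by more than that spread. The covariate of the share outside genes, the trends on length and GC content, and leaving out libraries by choroid plexus or phagocyte genes were chosen after seeing the data. No paired analysis was possible because the labels give no replicate numbers. Low isoforms at a few CPM had SEs above 0.15 in log2, so differences of the size seen in abundant subunits were not detectable for them.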

Other observations

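Among the 64 tested genes whose promoter window was read, the NRF1 core stood in 9, the YY1 motif in 10, the ETS motif in 5 and the estrogen-related receptor motif in 1. Of these genes 20 were lower after 15 weeks on 1 diet or both, and the same motifs stood in 4, 4, 2 and 0 of the 20. A link between the motifs and the lower levels was not tested. Cox6b2, the testis isoform of complex IV, was the only subunit gene higher in every CD stroke library than in every CD sham library, and its log2 fold change of 0.72 ± 0.38 did not pass (adjusted p = 0.254 by edgeR).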
